A study of Homo sapiens with 15 samples.

Results

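After 3 h with the stereoprobe WX-02-23, FOXA1 peaks were listed at 3 places where the matched DMSO list of parental 22Rv1 cells had none. The places are named here after the genes ANO6 on chromosome 12 and DDHD2, NSD3 and RALYL on chromosome 8. Around each place a window of the hg19 genome was taken, and every peak of the 12 deposited lists inside it was followed: chr12:45400000-46000000 for ANO6, chr8:38000000-38350000 for DDHD2 and NSD3, and chr8:84300000-85900000 for the flank of RALYL. Together the windows span 2550 kb and hold 253 peaks. Peaks that overlapped by at least 1 bp were merged, which gave 73 separate sites of 69194 in the whole series: 15 at ANO6, 12 at DDHD2/NSD3 and 46 at the RALYL flank. The windows were chosen by the peak calls and scores of the WX-02-23 lists themselves, so the calls of the 3 leading peaks in those lists are a description and carry no test.

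FOXA1 is a forkhead transcription factor of the pioneer class: it binds its motif in closed chromatin and makes the DNA reachable for other factors, in prostate cells above all for the androgen receptor. A FOXA1 ChIP-seq peak marks a stretch of DNA that an antibody against FOXA1 enriched. ANO6 encodes a calcium-activated phospholipid scramblase and ion channel of the cell surface. DDHD2 encodes an intracellular lipase, NSD3 a histone H3 lysine methyltransferase, and RALYL an RNA-binding protein related to RALY. By gene order in RefSeq (GRCh38.p14), the protein-coding neighbours of ANO6 are DBX2 and ARID2, and those of RALYL are SNX16 and LRRCC1. PLPP5 lies between DDHD2 and NSD3, with BAG4 before this pair and LETM2 and FGFR1 after it. An hg19 annotation was not used here, so whether a peak falls in an exon, an intron or between genes was not analysed, and the gene names serve as names of the windows.

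22Rv1 is an established human prostate carcinoma line. Its parental form gave 6 lists: DMSO at 0.1%, WX-02-23 at 20 µM, WX-02-43 at 20 µM, PladB (pladienolide B, a splicing inhibitor), siFOXA1 and a control siRNA. The PladB sample carries 100 nM in its own label and 10 nM in the shared protocol. The other 6 lists came from engineered 22Rv1 cells that all overexpress Y36C-PHF5A, a form of a splicing factor known for resistance to pladienolide, together with a doxycycline-inducible FOXA1, either wild type (WT) or C258A, in which alanine replaces a cysteine. Each of these lines was profiled uninduced with DMSO, and after doxycycline with either DMSO or 20 µM WX-02-23. Engineered cells still carry their own FOXA1, and no label describes a tag that would set the induced protein apart. The labels give no clone, no doxycycline dose and no siRNA time.

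Each group had 1 library, so no difference below could be set against a spread between replicates, and conditions were compared without tests or p-values. The lists held from 3018 peaks (siFOXA1) to 34119 (control siRNA), and the sequencing depth behind them is unknown. Scores are the authors' own value per peak, with no definition in the files. The highest score in any list was 3233. Scores from several lists are printed side by side, and no change is read from them, since their scale can differ between lists.

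The leading peaks were the strongest of a longer series. In the parental WX-02-23 list, 1520 of 17217 peaks had no overlap with a peak made with DMSO, control siRNA, PladB or WX-02-43. WT cells treated with WX-02-23 listed 248 of these peaks while C258A cells under the same treatment did not, and the median score of the 248 was 140. The 3 highest of the 248 are the leading peaks, at scores of 634 (RALYL flank), 529 (ANO6) and 520 (DDHD2/NSD3). The next candidate outside the choice lay at chr7:26452736-26453654 with a score of 410. Among all 1520 peaks the leading peaks held places 5, 9 and 10. The highest of the 1520, at chr12:80622948-80623899 with a score of 917, was also listed in C258A cells with WX-02-23. In all, 9 of the 1520 scored above the DDHD2/NSD3 lead. Of these, 5 were listed in C258A cells with WX-02-23, and 2 in neither engineered line with WX-02-23. The rest were the leads at the RALYL flank and ANO6. "Strong" is therefore relative: the leading peaks stood at 12.2%, 16.1% and 16.5% of the way down the parental WX-02-23 list by score.

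**Figure D1:**
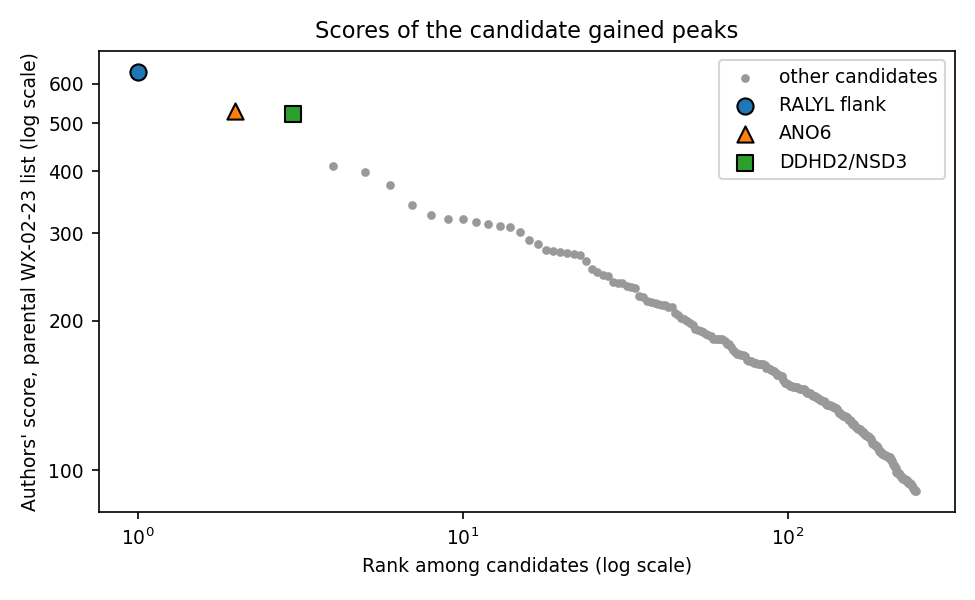
Scores in the parental WX-02-23 list (vertical axis, log scale) of the 248 candidate peaks by rank (horizontal axis, log scale), with 1 point per peak. The 3 leading peaks, drawn as large coloured symbols, lie between 520 and 634, and the next candidate lies at 410.

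The leading peak of the RALYL flank, chr8:84625660-84626607, was 948 bp wide and ranked 2098 of 17217 in the parental WX-02-23 list. In WT cells with WX-02-23 a narrower peak of 467 bp lay wholly inside it, with a score of 215 and rank 9985 of 25849. None of the other 10 lists had a peak there. The nearest DMSO peak ended 8.58 kb before it, and the nearest WX-02-43 peak 43.8 kb before it.

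The leading ANO6 peak, chr12:45611039-45612164, was 1126 bp wide and ranked 2772 of 17217. The WT list with WX-02-23 again held a narrower peak inside it, 507 bp wide, with a score of 205 and rank 10593 of 25849. It too was absent from the other 10 lists. The nearest DMSO peak began 50.7 kb after it, and the nearest peak of the induced WT list without the compound 5.77 kb after it.

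The leading DDHD2/NSD3 peak, chr8:38140075-38141069, was 995 bp wide and ranked 2834 of 17217. It was listed in WT cells with WX-02-23 at a score of 206, and also in WT cells with doxycycline and DMSO at a score of 121, which was rank 24575 of 31735. This site was thus listed without the stereoprobe once WT FOXA1 was induced, though low in its list. With all 4 induced lists reduced to their 13299 highest scores, the WT call with DMSO was lost and the call with WX-02-23 kept. The other 9 lists had no peak at this site, and the nearest parental DMSO peak ended 12.2 kb before it.

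The overlap between the parental and the WT peaks depends on the rule for sharing. When each peak had to cover 50% of the other, the ANO6 and RALYL flank leads were listed in 1 list only, since the WT peaks are narrower, and the DDHD2/NSD3 lead stayed at 3.

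Of the 12 lists, 5 took no part in the filter that gave the 248: siFOXA1, both lists without doxycycline, and both lists with doxycycline and DMSO. Whether these 5 lists played a part in the choice of the windows is not known. In these 5 lists, 1 of the 3 leads was listed, the one at DDHD2/NSD3 in induced WT cells. Of all 248 candidates, 109 (44.0%, Wilson 95% interval 37.9 to 50.2%) were listed in induced WT cells with DMSO, and none in WT cells without doxycycline or with siFOXA1 (upper bound 1.53% in each). In C258A cells 2 were listed without doxycycline and 1 with doxycycline and DMSO. A call in WT cells and none in C258A cells, both with WX-02-23, were part of the choice of the 248, and the induced WT list on DMSO is the longer of the 2 induced DMSO lists (31735 against 13299 peaks). So nothing is read from these shares about the lines. Of the 1520 peaks before that choice, siFOXA1 listed 2.83%. The WT line listed 0.263% uninduced and 24.9% induced on DMSO, and the C258A line 1.64% and 7.96%. All intervals count peaks as independent and reflect counting error alone.

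Neighbouring sites in the ANO6 window were mapped next, with distances given in kb from the centre of the lead and negative towards the start of the chromosome. The site at 86.3 kb, chr12:45697314-45698510, was listed in 11 lists, all but siFOXA1. In 8 of the 11 lists with any peak in the window it was the highest-scoring peak of the window, with 1907 for DMSO, 1527 for PladB, 1480 for control siRNA and 884 for WX-02-43. In the 3 lists made with WX-02-23 another site stood highest. In parental cells that was the lead itself, at 529 against 221 for the site at 86.3 kb. In WT cells it was chr12:45402489-45403373 at -209 kb, with a score of 1295 and rank 340 of 25849. That site was also listed in WT cells with doxycycline and DMSO, at a score of 312 and rank 8961 of 31735, and in no parental or C258A list. In C258A cells it was the site at 332 kb, at a score of 293 against 97.9 for the site at 86.3 kb.

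The remaining parental DMSO peaks in the ANO6 window were few. The site at 51.5 kb was listed in 9 lists, with a DMSO score of 507 and a WX-02-23 score of 131. The DMSO peaks at -86.8 and 154 kb had no WX-02-23 partner, and both were weak, with scores of 92.3 and 117. Apart from the lead, the parental WX-02-23 list had no peak in the window that the DMSO list lacked. The gain at ANO6 was therefore a single site among 3 parental WX-02-23 peaks. Of the 15 sites, 8 (53.3%) were listed in engineered cells only, against 36.7% of all 69194 sites. That share was 33.3% in the DDHD2/NSD3 window and 43.5% at the RALYL flank. The nearest site to the lead was among the 8, a WT DMSO peak at 6.63 kb with a score of 104. On the other side the nearest site lay at -47.1 kb, a control siRNA peak with a score of 101.

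**Figure D2:**
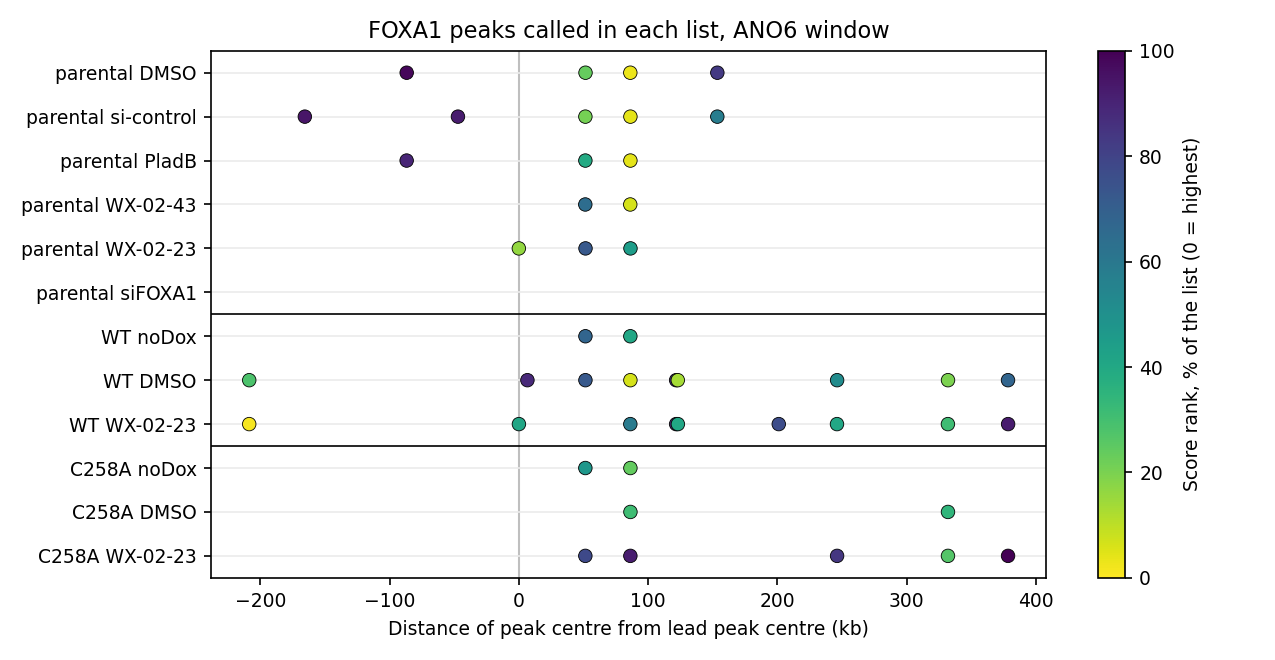
Peaks of the 12 lists in the ANO6 window, 1 point per peak, by distance from the lead's centre in kb (horizontal axis) and list (rows). Colour gives the score rank as a percentage of the list, with 0 the highest. At 0 kb only the parental and WT lists with WX-02-23 have a point, and the site at 86.3 kb has a point in 11 rows.

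At DDHD2/NSD3 the lead lay within a close group of sites. The site at -15.8 kb, chr8:38124071-38125400, was listed in 5 parental and 2 WT lists and had the highest score of the window in the parental WX-02-23 list, at 706. Its scores in the other parental lists were 559 (PladB), 321 (DMSO), 312 (control siRNA) and 201 (WX-02-43). Its neighbour at -13.3 kb, chr8:38126590-38127893, was listed with DMSO (270), PladB (333), control siRNA (248) and WX-02-43 (127), and not with WX-02-23. Of these neighbouring DMSO sites the parental WX-02-23 list thus kept 1 and missed 1.

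On the other side, the nearest site at 2.09 kb, chr8:38142286-38143037, appeared in induced WT cells only, at 122 with DMSO and 210 with WX-02-23. The WT site at -20.1 kb stood at 154 with DMSO and 288 with WX-02-23, where it was the highest of the window. All 6 induced WT peaks of this window without the compound were listed with it (100%, 61.0 to 100%). Over the whole list, 39.3% of such peaks were lost. The site at 97.4 kb, chr8:38237131-38238718, was listed in all lists but siFOXA1 and was the highest of the window in 9 of the 11 lists with a peak there. Its scores were 987 with DMSO, 1343 with PladB, 1091 with control siRNA, 557 with WX-02-43 and 219 with WX-02-23 in parental cells. In C258A cells its scores were 658 before induction, 201 after it with DMSO and 269 with WX-02-23. A further site at 172 kb, chr8:38311962-38312566, was listed with WX-02-23 in parental cells alone, at a score of 210. The DMSO site at -98.5 kb had no parental WX-02-23 peak and no WX-02-43 peak. WT cells listed this site uninduced (127), and induced with DMSO (102) and with WX-02-23 (118). C258A cells listed it uninduced (153) and in neither induced list.

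**Figure D3:**
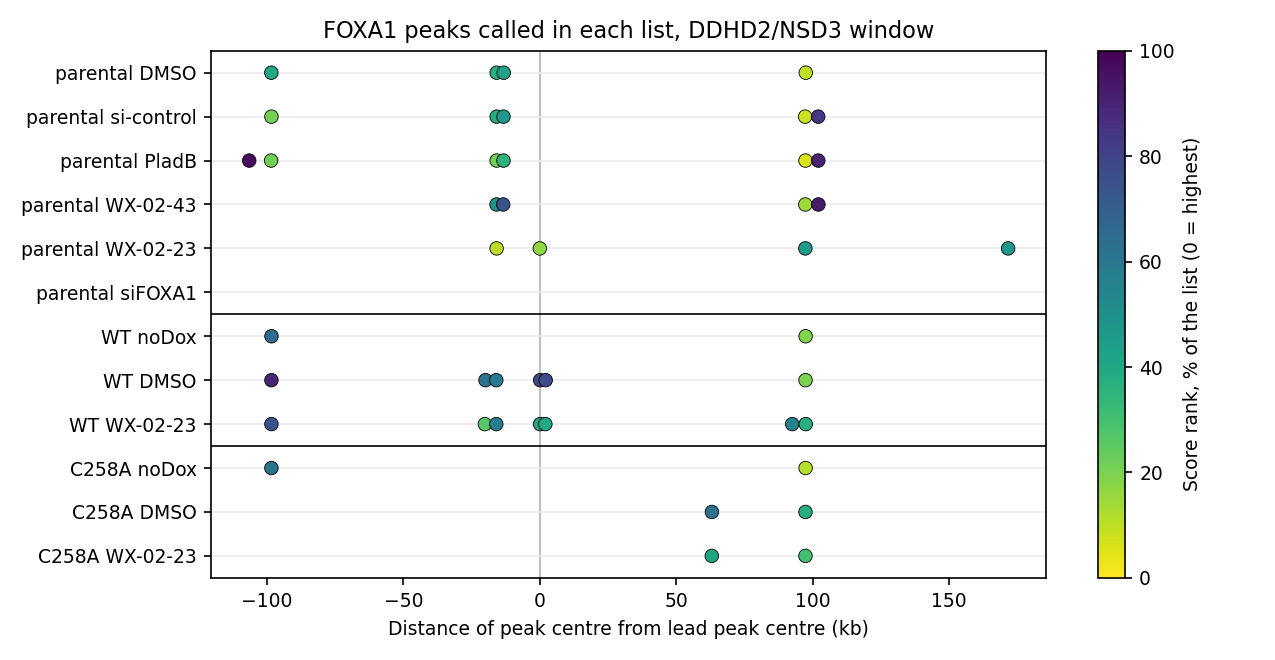
Peaks of the 12 lists in the DDHD2/NSD3 window, 1 point per peak, by distance from the lead's centre in kb (horizontal axis) and list (rows), coloured by score rank as a percentage of the list. The lead at 0 kb has points in the parental WX-02-23, WT DMSO and WT WX-02-23 rows, and the site at 97.4 kb has points in 11 rows.

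The RALYL flank is the longest window. Of 18 parental DMSO peaks, 9 were listed with WX-02-23 and 9 were not, against 52.8% lost over the whole DMSO list. Of 12 WX-02-23 peaks, 3 had no DMSO peak, against 15.5% over the whole list: the lead, which chose the window, a weak one at -222 kb with a score of 97.3, and one at 711 kb with a score of 190. The peak at 711 kb was also listed with WX-02-43, PladB and control siRNA, so only DMSO lacked it among these parental lists. The site at -222 kb was listed in WT cells with DMSO (165) and with WX-02-23 (271), and in C258A cells with WX-02-23 (101).

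Next to this lead, the nearest sites were a WT peak with WX-02-23 at -7.85 kb, with a score of 105, and a parental site at -9.21 kb. The latter was listed with DMSO (146), PladB (192), control siRNA (127) and WX-02-23 (214), and not with WX-02-43. On the other side the first site lay 69.3 kb away, a peak of C258A cells with WX-02-23 at a score of 131. No parental list but siFOXA1 had a peak between the lead and 306 kb.

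Of the 9 losses, 2 lay near the lead, at -12.9 kb (DMSO score 152) and -44.7 kb (305), and 2 far from it, at 767 kb (102) and 1050 kb (197). WX-02-43 listed the site at -44.7 kb, and also lacked those at -12.9, 767 and 1050 kb. The other 5 losses followed each other. Between 390 and 601 kb, the DMSO list had 5 consecutive peaks and the WX-02-23 list none, and sites at 306 and 603 kb, listed with both, bounded this stretch. These 2 bounding calls were weak with WX-02-23, at scores of 96.0 (rank 16371 of 17217) and 94.0 (rank 16764). The lowest score in any list was 90. With DMSO the bounding sites scored 484 and 486. The strongest of the 5, at 390 kb, had scores of 564 (DMSO), 515 (PladB), 459 (control siRNA) and 332 (WX-02-43). It was also listed in both lines without doxycycline and in WT cells with doxycycline and DMSO, and in no list made with WX-02-23. In C258A cells it was already missing with doxycycline and DMSO. The site at 468 kb, with a DMSO score of 418, lacked a WX-02-23 peak in parental and WT cells and was listed in C258A cells with WX-02-23 at a score of 155. WX-02-43 listed 4 of these 5 sites, all but the weak one at 529 kb, whose DMSO score was 111.

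The 3 strongest DMSO sites of the window were listed in parental cells under both stereoprobes. The site at -188 kb had the highest DMSO score of the window, 1224, and 228 with WX-02-23. It was in no WT list, and C258A cells listed it uninduced (217) and on DMSO (93.8) but not with WX-02-23. At 1002 kb the scores were 1065 with DMSO and 619 with WX-02-23, and this site was the highest of the window with PladB (1420) and control siRNA (1673). The site at 1117 kb, chr8:85741856-85743423, was the highest of the window in the parental WX-02-23 list, with 1381 and rank 479 of 17217. With DMSO it scored 827, rank 3908 of 30557. It was also the highest in C258A cells with WX-02-23, at 686, and in WT cells without doxycycline, at 180. The 11 lists other than siFOXA1 all held the sites at 1002 and 1117 kb. The next site, at 1135 kb (chr8:85760420-85761498), was listed in 10 lists and was the highest of the window in 4 of them. These were induced WT cells with DMSO (683) and with WX-02-23 (812), and C258A cells uninduced (509) and with doxycycline and DMSO (363). In parental cells it scored 697 with DMSO and 270 with WX-02-23.

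The knockdown list had 3 peaks in the windows, all at the RALYL flank. One lay at -266 kb, chr8:84359627-84360249, where all 6 parental lists and no engineered list had a peak, with scores from 100 (siFOXA1) to 309 (WX-02-43). At this site 3 of the 6 peaks ended at the same base. The other siFOXA1 peaks, at 120 and 302 kb, were in no other list.

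**Figure D4:**
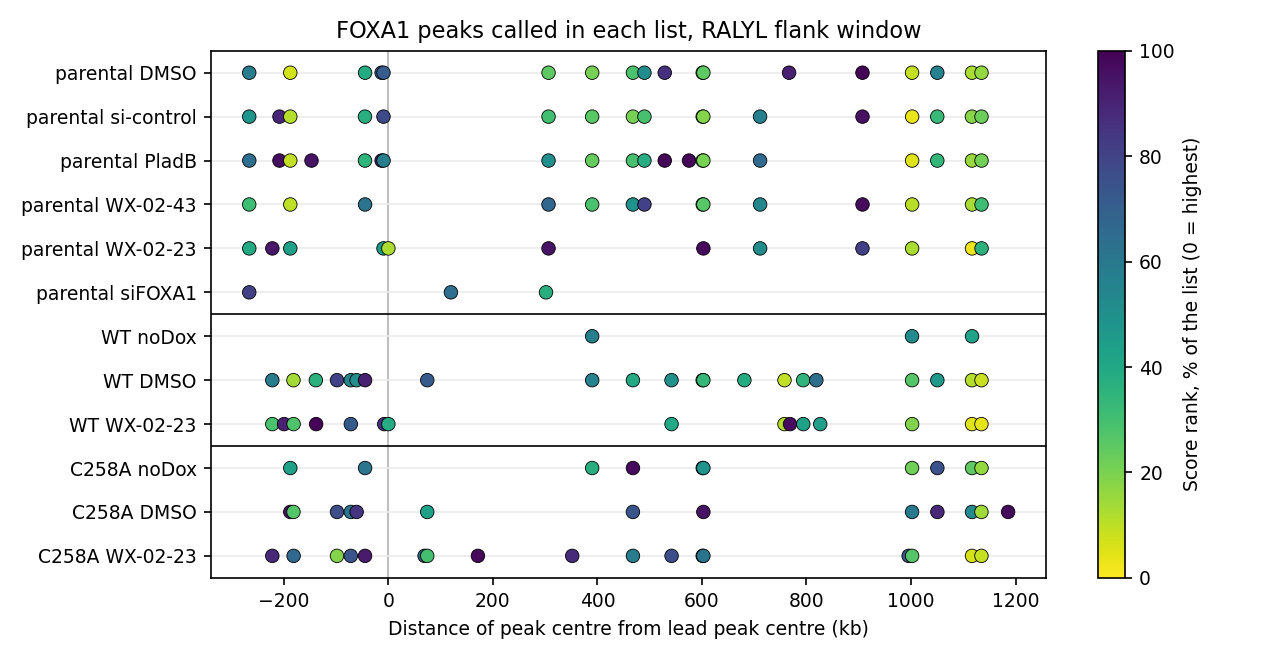
Peaks of the 12 lists in the RALYL flank window, 1 point per peak, by distance from the lead's centre in kb (horizontal axis) and list (rows), coloured by score rank as a percentage of the list. Between 390 and 601 kb the parental WX-02-23 row is empty while the other parental rows, siFOXA1 aside, hold points.

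Over the 3 windows together, the parental DMSO list had 26 peaks. With WX-02-23, 13 of them were lost, against 52.8% over the whole DMSO list. Of the 19 WX-02-23 peaks, 6 had no DMSO peak, and 3 of these 6 are the leads, chosen for that. Without the leads it was 3 of 16 (18.8%, 6.59 to 43.0%), against 15.5% over the whole list. Losses around the leads, and gains apart from them, were thus at about the level of the whole list. At the 17 sites shared by DMSO, WX-02-43, PladB and control siRNA, 6 (35.3%) had no WX-02-23 peak, against 28.8% of 16419 such sites in the series.

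The stereoprobe WX-02-43 was used at the same dose and time, and its lack of the 3 leads was part of their choice. It missed 8 of the 26 DMSO peaks, against 44.5% over the whole list, and 2 of its 20 peaks had no DMSO peak, against 6.10%. Its kept share was 69.2% (50.01 to 83.5%) and that of WX-02-23 was 50% (32.1 to 67.9%). Both shares rest on the same 26 DMSO peaks, so the overlap of their separate intervals does not measure the difference between them, which was not tested. Set directly against WX-02-43, WX-02-23 lacked 7 of 20 peaks (32.5% over the whole list) and had 6 of 19 of its own, the 3 leads by choice. Without the leads it had 3 of 16 of its own, against 28.6% over the whole list. With lists of equal length (17217 peaks), 17 DMSO peaks were left in the windows. The kept shares were then 94.1% for WX-02-43 and 58.8% for WX-02-23. No share over the whole lists was computed at equal length, so nothing is read from the gap between these shares. The labels name both compounds stereoprobes, and the difference in structure is not given in the sources used here. With PladB, 3 of the 26 DMSO peaks were lost (11.8% over the whole list) and 6 of 29 were gained (19.4%). At equal length none of these 6 remained, and 1 other PladB peak had no DMSO peak.

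FOXA1 knockdown removed nearly all calls in the windows. With siFOXA1, 26 of 27 control siRNA peaks were lost, against 96.2% over the whole list, and 2 of 3 siFOXA1 peaks had no control siRNA peak, against 55.8%. The ANO6 and DDHD2/NSD3 windows had no siFOXA1 peak.

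Induction of WT FOXA1 took the count from 7 to 36 peaks. All 7 were kept, against 26.7% lost over the whole list, and 29 were gained, against 80.4%. In C258A cells 9 of 14 peaks were kept with induction (64.3%, 38.8 to 83.7%) and 5 were lost (64.8% lost over the whole list), and 8 of 17 were gained (66.2%). With WX-02-23, induced WT cells lost 13 of 36 peaks (39.3% over the whole list) and gained 8 of 31 (24.6%). The 8 include the leads at ANO6 and the RALYL flank, whose call in this list was part of the filter that gave the 248. Without the leads the gain was 6 of 28. Of the 13 losses, 11 were at the RALYL flank, 2 at ANO6 and none at DDHD2/NSD3. Induced C258A cells kept 13 of 17 (76.5%, 52.7 to 90.4%), lost 4 (9.16% over the whole list) and gained 11 of 24 (41.5%), of which 8 were at the RALYL flank and 3 at ANO6. With the 4 induced lists at equal length, where no share over the whole lists was computed, C258A cells gained 1 peak in the windows. Lists differ in length, so these counts describe the lists as deposited, and fewer bound sites cannot be told apart from lower depth.

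**Figure D5:**
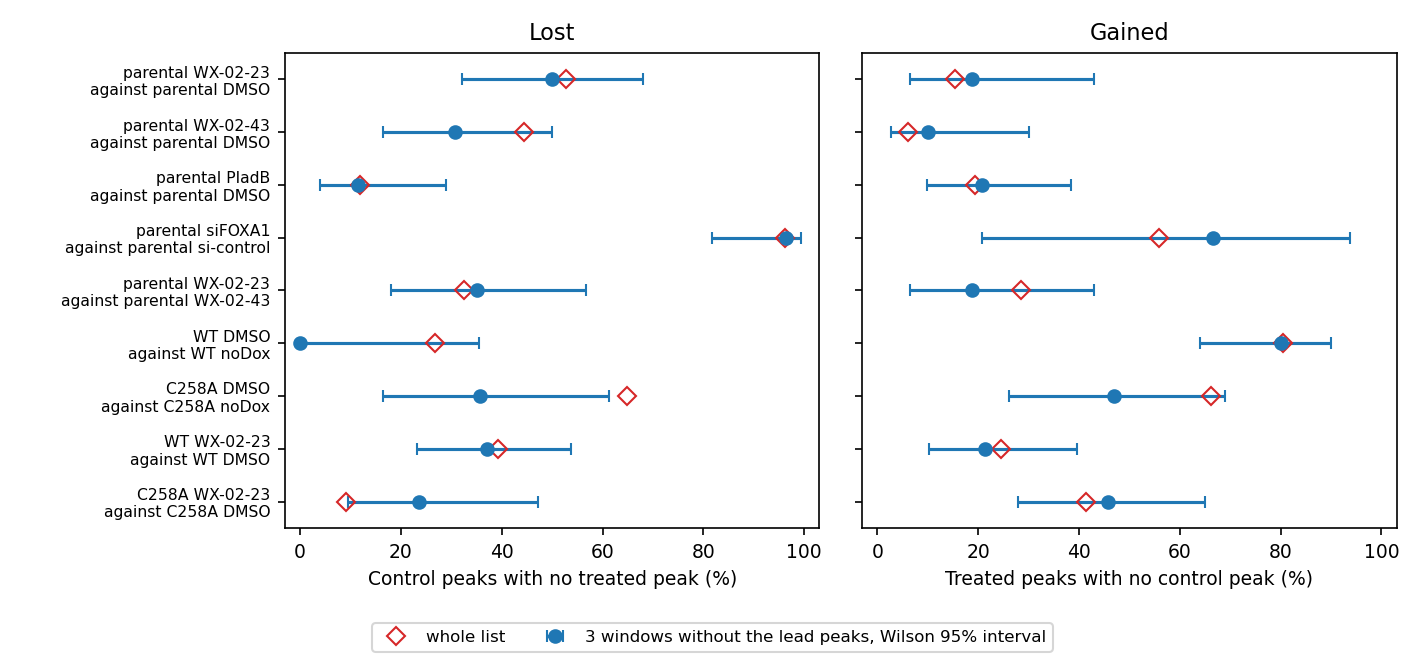
Share of control peaks with no treated peak (left) and of treated peaks with no control peak (right), in percent, for the 9 pairs of lists in rows. Filled circles give the 3 windows, with every peak at a lead left out, and Wilson 95% intervals, and open diamonds the whole lists. For parental WX-02-23 against DMSO the windows lie at 50% lost and the whole list at 52.8%.

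The call pattern of the leads was searched for in the whole genome. Over the 12 lists, 138 of the 17217 parental WX-02-23 peaks (0.802%) had the pattern of the ANO6 and RALYL flank leads, listed with WX-02-23 in parental and WT cells and nowhere else. Apart from these leads, the highest-scoring were chr7:26452736-26453654 (410), chr20:13719923-13720621 (375) and chr21:19514852-19515531 (342). In WT cells with WX-02-23 these 3 had scores of 106, 133 and 593. The pattern of the DDHD2/NSD3 lead, with induced WT cells on DMSO added, was shared by 107 peaks (0.621%), led after it by chr2:227591404-227592400 (398), chr18:71211063-71211775 (327) and chr8:18347037-18347853 (321).

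The leads were also compared in spacing with all 1520 peaks of parental WX-02-23 alone. The median gap to a DMSO peak was 23.4 kb over the 1520, and 46.0% had one within 20 kb. The leads at the RALYL flank (8.58 kb) and DDHD2/NSD3 (12.2 kb) lay closer to a DMSO peak than that median, and the lead at ANO6 (50.7 kb) lay farther. To the next of the 1520 peaks the median gap was 566 kb, and the gaps of the leads were 171 kb at DDHD2/NSD3, 221 kb at the RALYL flank and 745 kb at ANO6. In width the leads, at 948 to 1126 bp, exceeded the median of 470 bp over the 1520. The leads were chosen for a high score and the 1520 were not, so nothing is read from this difference in width.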

How the data were processed

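Per the submitters' processing notes, bcl2fastq, Bowtie2 and the build hg19 were used, with no versions. The deposited peak names begin with MACS. The caller's version, thresholds and control are not given in the sources used here. The authors deposited 1 list per library, not pooled, as BED files without a header, and the score in column 5 is the authors' value per peak. The 3 inputs were not analysed here. BED starts, counted from 0, are printed counted from 1.

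Peaks wholly inside the windows were taken. A peak is kept, or shared, when a peak of the other list overlaps it by at least 1 bp, lost when a control peak has none, and gained when a treated peak has none. The overlap code was tested on simulated data. Wilson 95% intervals came from scipy 1.17.1. The lead of a window is its highest-scoring parental WX-02-23 peak with no DMSO, WX-02-43, PladB or control siRNA peak. Besides the lead, the sites described are the nearest on each side, those listed with parental WX-02-23 but not DMSO, missed ones among the 3 strongest DMSO peaks, and the strongest of each list. The other sites singled out (the run at the RALYL flank, siFOXA1 peaks and engineered-only sites) were chosen after their values were seen. Windows, members and tests were chosen with earlier results of these data known. Alternatives were another overlap rule, a score threshold, equal list length and other window limits. The sequence under the peaks was not used here.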

Additional observations from a re-analysis of the deposited data

Results flagged for a closer look

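Peak counts in the windows fell in one engineered line and rose in the other, with 1 library per condition. With WX-02-23 against DMSO after induction it changed by -5 in WT cells (36 to 31) and by 7 in C258A cells (17 to 24). At the RALYL flank alone it changed by -6 in WT cells (21 to 15) and by 4 in C258A cells (13 to 17). The difference between the lines was not tested. The whole lists moved the same way: the WT list went from 31735 to 25849 peaks and the C258A list from 13299 to 20609. With the 4 lists at 13299 peaks each, the windows held 16 and 19 peaks in WT cells and 17 and 11 in C258A cells, so both directions turned round.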

How the results depend on the processing

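For 36 results, 183 alternative values were computed: 133 stayed inside the interval, or for counts inside a factor of 1.5, and 50 moved. None of these results has a test. No value moved when a gap of up to 500 bp counted as shared or when peaks crossing a window's edge were included. No peak crossed an edge, so the 33 values of the latter alternative could not move. No paired analysis was possible because each group has 1 library. Equal list length was not run on pairs with a siFOXA1 list or a list without doxycycline, and the limit of the rest is list length, since depth is unknown.

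Leaving out the lead peaks, an alternative chosen after seeing the data, gave 3 gained peaks for parental WX-02-23 against DMSO and 3 against WX-02-43. Reciprocal overlap of 50% gave 1 list each for the ANO6 and RALYL flank leads, 4 gained WX-02-43 peaks and a kept share of 0% for siFOXA1. Equal list length gave kept shares of 94.1% for WX-02-43 and 100% for PladB, 1 gained peak each for PladB and for C258A cells with WX-02-23, and 7 sites at ANO6.

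The top 50% of each list by score gave kept shares of 0% for siFOXA1 and 30.0% for C258A induction. Gained peaks became 15 for induction of WT FOXA1 and 3 for C258A, 4 for WX-02-23 in C258A cells, and in parental cells 2 for PladB, 1 for WX-02-43 and 1 for siFOXA1. Sites became 7 at ANO6 and 26 at the RALYL flank. Peaks in the windows became 16 (DMSO), 17 (PladB), 11 (WX-02-43) and 1 (siFOXA1) in parental cells, 3, 18 and 19 in WT cells without doxycycline, with it and with WX-02-23, and 6 and 8 in induced C258A cells with DMSO and with WX-02-23.

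Windows of 50% of the length, centred on the lead, lower counts by construction. At the RALYL flank the shorter window was also cut at the original start, so it spanned less than 50%. It left out the sites at 1002, 1117 and 1135 kb. The shorter windows gave a kept share of 100% for PladB and gained counts of 2 for PladB, 0 for WX-02-43, 15 for WT induction, and 4 (WT) and 6 (C258A) for WX-02-23 in induced cells. Sites became 8, 6 and 24. Peaks became 12 (DMSO), 14 (PladB), 11 (WX-02-23), 9 (WX-02-43) and 12 (control siRNA) in parental cells, 3, 18 and 15 in WT cells, and 5, 8 and 12 in C258A cells.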
